A study of Homo sapiens with 8 samples.

Results

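The enzymes that cross-link extracellular matrix were examined across 8 RNA-seq libraries of the SRA01/04 line, which was made from human lens epithelium with a viral large T antigen. The 9 genes were chosen by symbol as the 5 lysyl oxidases (LOX and LOXL1 to LOXL4), the 3 lysyl hydroxylases (PLOD1 to PLOD3) and transglutaminase 2 (TGM2). They are 9 of 58735 genes counted, and all 9 were among the 15647 genes with enough counts to test. A set of 4 libraries came from cells with a control hairpin RNA (shControl, genotype WT) and the other 4 from cells with a hairpin against SMURF1 (shSmurf1, genotype Smurf1 knockdown), a ubiquitin ligase that acts on TGF-β signalling. Every culture had been given TGF-β2 (recombinant human protein, 20 ng/ml) during 48 h, and each value below is a level under it. The labels describe the libraries as biological replicates but not whether the cultures were grown apart, and they name neither a clone, another hairpin against SMURF1 nor a rescue. Lower SMURF1 and anything else in which the shSmurf1 line differs from its control cannot be told apart, nor can, in bulk RNA, fewer cells of a type and less RNA per cell.

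Lysyl oxidases are secreted copper enzymes that oxidise lysine and hydroxylysine side chains of collagen and elastin to aldehydes, which then condense into covalent cross-links. Lysyl hydroxylases act earlier, in the endoplasmic reticulum, where they hydroxylate collagen lysines and so set which kind of cross-link can form. Transglutaminase 2 joins glutamine to lysine side chains of matrix proteins such as fibronectin. In the lens, epithelial cells exposed to TGF-β deposit a collagen-rich matrix, the setting of fibrotic cataract.

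SMURF1 itself stood at 88.9 ± 3.17 CPM (counts scaled to library size; mean ± SD, n = 4, as for all values below) in shControl and fell to 51.1 ± 0.491 in shSmurf1, with no overlap (log2 fold change −0.80 ± 0.055, edgeR adjusted p = 2.86e-09). Library totals ranged from 14688651 to 17030394 counts. shSmurf1 replicate 3 stood apart: its log2 CPM fell with GC content by 0.148 per 10 percentage points relative to its group, whereas the slopes of the other 7 libraries lay between −0.0176 and 0.0691. Of 11 lens epithelial markers, 5 were tested (PAX6, SIX3, MEIS1, GJA1 and VIM), while FOXE3, CRYAA, CRYAB, PROX1, MAF and CDH1 were each too low to test. The list's summed level was 2230 to 2272 CPM in shControl and 1701 to 1997 CPM in shSmurf1, most of it from VIM. Of these 5, VIM (−0.31 ± 0.049), GJA1 (−0.83 ± 0.063) and SIX3 (−0.37 ± 0.099) fell on the log2 scale, with groups that did not overlap, and PAX6 and MEIS1 did not pass. The 3 leukocyte markers summed to at most 0.757 CPM and the 3 keratinocyte markers to at most 0.404 CPM in any library. The 5 fibroblast markers summed to between 2115 and 2332 CPM in shControl and between 1674 and 2359 CPM in shSmurf1, nearly all of it from COL1A1 and THY1, though LUM rose from 0.282 to 2.16 CPM. The 3 endothelial markers summed to at most 3.10 CPM, the 6 lens fibre markers to at most 7.51 CPM and the 4 pigment cell markers to at most 22.8 CPM, where MITF fell by 0.40 on the log2 scale. CD3E, KRT14 and LIM2 were at 0 in every library. The part of cell identity in the results below was not tested.

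The proximal promoters of LOX and PLOD2 are shown because these 2 genes had the largest falls and both are known targets of hypoxia-inducible factors, whose core site is ACGTG or GCGTG. PLOD1 is shown beside them as the remaining gene whose window held a core match. Sequences are from RefSeq (GRCh38.p14), which matched 7 of the 9 genes, and run 5′ to 3′ over the 250 bases before the RefSeq start. LOXL2 and TGM2, both higher in shSmurf1, had no entry, so their promoters were not searched and cannot be set beside these. They lie at chr5:122078260-122078509 on the minus strand for LOX, chr3:146161185-146161434 on the minus strand for PLOD2 and chr1:11934467-11934716 on the plus strand for PLOD1. The gene spans given below come from another annotation with other starts, and these windows overlap them. Capitals mark each ACGTG or GCGTG on either strand.
LOX: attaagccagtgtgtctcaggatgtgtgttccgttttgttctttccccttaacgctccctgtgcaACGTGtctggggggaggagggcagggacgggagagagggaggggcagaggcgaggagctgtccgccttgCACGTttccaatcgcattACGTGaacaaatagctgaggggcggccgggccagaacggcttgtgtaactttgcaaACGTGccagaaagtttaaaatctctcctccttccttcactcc
PLOD2: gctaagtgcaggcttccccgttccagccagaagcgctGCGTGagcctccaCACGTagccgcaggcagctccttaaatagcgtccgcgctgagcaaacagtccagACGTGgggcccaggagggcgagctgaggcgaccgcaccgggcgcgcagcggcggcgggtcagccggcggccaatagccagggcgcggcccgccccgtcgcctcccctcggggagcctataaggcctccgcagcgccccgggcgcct
PLOD1: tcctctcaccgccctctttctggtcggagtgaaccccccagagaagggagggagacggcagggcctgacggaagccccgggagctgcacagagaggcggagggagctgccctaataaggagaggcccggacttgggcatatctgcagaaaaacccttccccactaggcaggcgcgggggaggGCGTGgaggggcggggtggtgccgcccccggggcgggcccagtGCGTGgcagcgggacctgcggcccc

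The LOX window held 4 matches, all ACGTG or its reverse complement, beginning 185, 116, 98 and 42 bases before the start. The PLOD2 window held 3, a GCGTG at 213 bases and ACGTG at 200 and 146 bases, and the PLOD1 window held GCGTG at 68 and 25 bases. The windows of LOXL1, LOXL3, LOXL4 and PLOD3 held 0. Of 27305 promoter windows of this length, 43.1% held at least 1 core match and 7.84% held 3 or more, counting a CACGTG as 2. The SMAD box CAGAC, present in 37.9% of windows, occurred in those of LOX, PLOD2 and LOXL1, and GGAATG, a site for TEAD factors present in 12% of windows, occurred at 118 and 100 bases before the start of LOXL3. These are matches of letters and show no binding.

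Of the 9 cross-linking genes, 4 were lower in shSmurf1 (LOX, PLOD1, PLOD2 and PLOD3), 3 were higher (LOXL2, LOXL4 and TGM2) and 2 did not pass (LOXL1 and LOXL3), at an adjusted p under 0.05 in edgeR's quasi-likelihood test with Benjamini-Hochberg adjustment over all genes. Among all genes tested, 22.5% were called, 12.2% lower and 10.3% higher. The median log2 fold change of the 9 was −0.08, against 0.01 for all genes tested. In 6 of the 9 the libraries of the groups did not overlap, as in 23.7% of all genes tested. Without shSmurf1 replicate 3 the counts were again 4 lower and 3 higher, where 33.7% of all genes were called, 17.3% lower and 16.4% higher. Without any other 1 library 3 were lower, beside 1547 to 1658 of all genes. In those fits 3 were higher, or 2 without shSmurf1 replicate 4, beside 1216 to 1288 of all genes. With the GC trends removed 5 were lower and 3 higher, beside 15.1% and 13.2% of all genes.

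**Figure D1:**
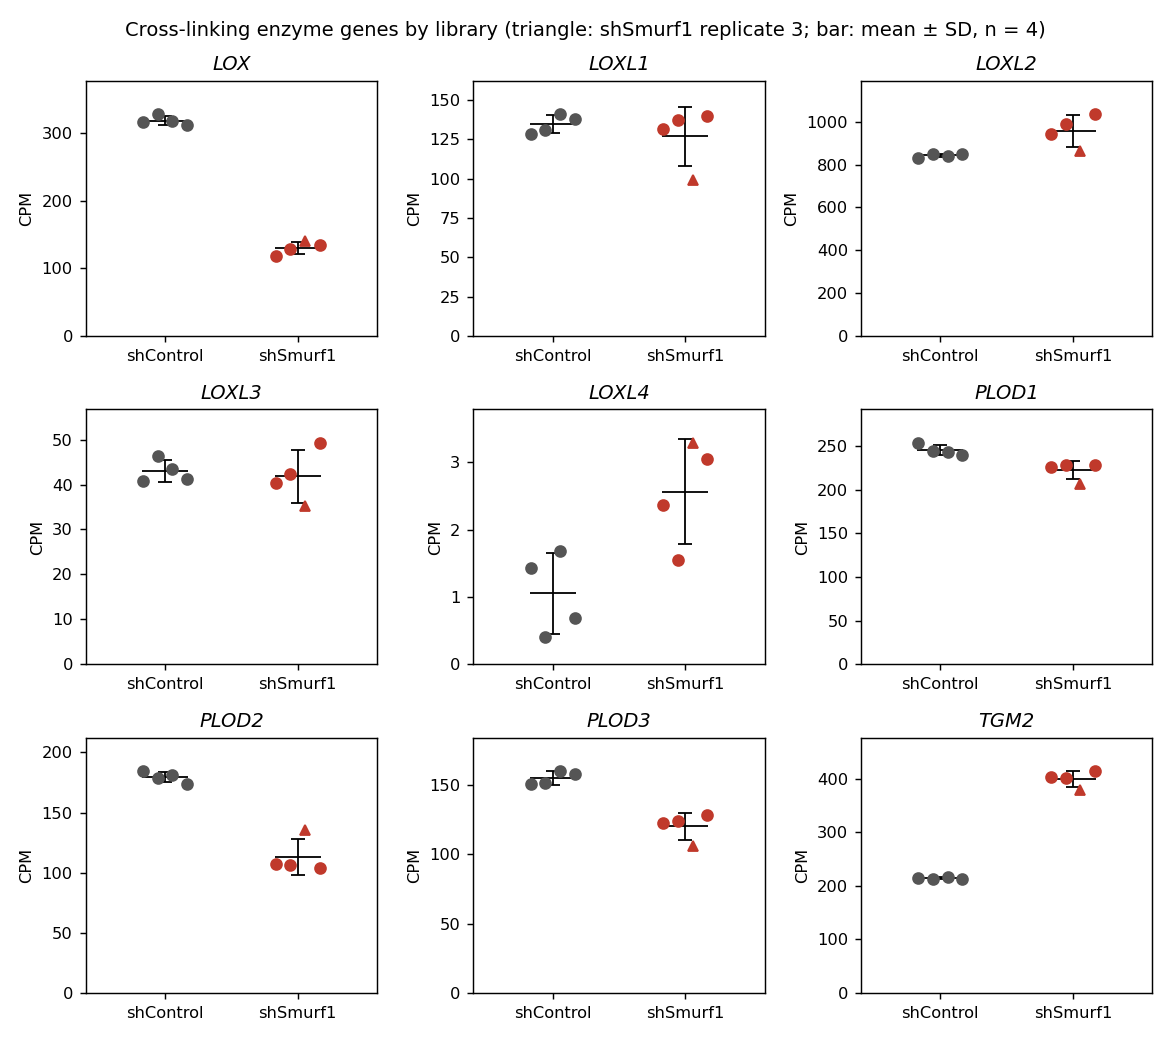
CPM of each of the 9 genes (vertical axes, each from 0) in the 4 shControl and 4 shSmurf1 libraries; points are libraries, triangles shSmurf1 replicate 3, and bars the mean ± SD. LOX, PLOD1, PLOD2, PLOD3, LOXL2 and TGM2 separate without overlap, and replicate 3 lies below the other shSmurf1 libraries in LOXL1, LOXL2, LOXL3, PLOD1, PLOD3 and TGM2 and above them in LOX, LOXL4 and PLOD2.

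LOX (ENSG00000113083, GRCh38 chromosome 5, 122063195 to 122078360, minus strand), the founding lysyl oxidase, had the largest fall of the 9 genes. Its level was 317, 328, 318 and 311 CPM in shControl replicates 1 to 4 and 118, 128, 140 and 134 CPM in shSmurf1 replicates 1 to 4. The groups were far apart, and the highest shSmurf1 library lay below the lowest control. The log2 fold change was −1.29 ± 0.054 (SE; edgeR adjusted p = 3.88e-12), or 40.8% of control, and it lay between −1.33 and −1.21 under all 17 other settings. The 50 tested genes nearest to LOX had a median log2 fold change of −0.07. SRFBP1, on the opposite strand, shares 138 exon bases with LOX, 2.49% of its exons, and had 2172 counts against 28346 for LOX. SRFBP1 fell too (−0.31 ± 0.10, edgeR adjusted p = 0.0356).

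LOXL1 (ENSG00000129038, chromosome 15, 73925989 to 73952137, plus strand), the lysyl oxidase tied most closely to elastic fibres, did not pass. It stood at 128, 131, 141 and 138 CPM in shControl and at 132, 137, 99.4 and 139.9 CPM in shSmurf1. shSmurf1 replicate 3 alone was low, and the other shSmurf1 libraries lay within the control range. Its log2 fold change was −0.08 ± 0.080 (edgeR adjusted p = 0.498), and 0.02 ± 0.044 without replicate 3 (edgeR adjusted p = 0.798). LOXL1-AS1, on the opposite strand, shares 335 exon bases with LOXL1, 9.21% of the LOXL1 exons. It had 3394 counts against 16512 for LOXL1 and did not pass (0.15 ± 0.077, edgeR adjusted p = 0.186). LOXL1 was the most GC-rich of the 9, with 67.6% GC in its longest transcript. With each library's GC trend removed it passed as lower, at −0.23 ± 0.039 (edgeR adjusted p = 3.67e-05, range over all settings 3.67e-05 to 0.798). In that fit 28.2% of all genes were called, 15.1% lower and 13.2% higher. These trends were taken against each gene's mean over both groups, so the fit also removes any GC-linked difference between the groups. With shSmurf1 replicate 3 left out as well, LOXL1 was −0.22 ± 0.039 (edgeR adjusted p = 4.54e-05).

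LOXL2 (ENSG00000134013, chromosome 8, 23297189 to 23425328, minus strand), which also oxidises basement membrane collagen IV, was the most abundant of the 9 and rose slightly. The control libraries read 833, 848, 841 and 849.6 CPM and the shSmurf1 libraries 941, 991, 862 and 1035 CPM. The groups did not overlap, but replicate 3 lay just above the highest control. LOXL2 had a log2 fold change of 0.18 ± 0.051 (edgeR adjusted p = 0.0125). Without shSmurf1 replicate 4 it was 0.14 ± 0.051 and did not pass (adjusted p = 0.0556, range over all settings 2.65e-06 to 0.0556). With the GC trends removed it was smaller, 0.12 ± 0.034, and passed (edgeR adjusted p = 0.0105).

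LOXL3 (ENSG00000115318, chromosome 2, 74532414 to 74555690, minus strand) did not pass. Control libraries read 40.8, 46.2, 43.5 and 41.3 CPM and shSmurf1 libraries 40.4, 42.3, 35.2 and 49.3 CPM, which spanned the control range on both sides. For LOXL3 the log2 fold change was −0.04 ± 0.085 (edgeR adjusted p = 0.808), so a small change in either direction would lie within its error. HTRA2 and DOK1, on the opposite strand, share 625 and 216 of its exon bases.

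LOXL4 (ENSG00000138131, chromosome 10, 98247690 to 98268250, minus strand) rested on few reads, 24, 6, 27 and 11 counts in shControl and 37, 23, 50 and 51 in shSmurf1. These correspond to 1.43, 0.404, 1.68 and 0.694 CPM against 2.37, 1.55, 3.29 and 3.04 CPM. The highest control library lay above the lowest shSmurf1 library. LOXL4 had a log2 fold change of 1.26 ± 0.35 (edgeR adjusted p = 0.0127), and the estimate ranged from 1.01 to 1.57 over the other settings.

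Among the lysyl hydroxylases, PLOD2 (ENSG00000152952, chromosome 3, 146069440 to 146163653, minus strand) fell furthest. Its protein hydroxylates the telopeptide lysines from which the hydroxylysine-aldehyde cross-links of fibrotic collagen are made. It read 184, 179, 181 and 174 CPM in shControl and 107, 106, 136 and 104 CPM in shSmurf1. The groups did not overlap, and replicate 3 lay well above the other shSmurf1 libraries. PLOD2 had a log2 fold change of −0.67 ± 0.070 (edgeR adjusted p = 9.37e-07), or 63.0% of control, and −0.76 ± 0.041 without replicate 3 (range over all settings −0.76 to −0.58). PLOD2 had the lowest GC content of the 9, 34.4%. Of its 50 nearest tested genes, within 7.13 Mb, 16 were lower and 6 higher, with a median log2 fold change of −0.07. Among all genes tested, 12.2% were lower and 10.3% higher. The part of the region in the fall of PLOD2 was not tested.

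PLOD3 (ENSG00000106397, chromosome 7, 101205977 to 101218420, minus strand), which also adds glucose to hydroxylysine, fell to 77.6% of control. It read 151, 151, 159.97 and 158 CPM in shControl and 122, 124, 106 and 129 CPM in shSmurf1, without overlap. The log2 fold change was −0.37 ± 0.058 (edgeR adjusted p = 0.000124). SMURF1 lies on the same chromosome, at 99027438 to 99144100, and the neighbours of PLOD3 were lower too. Of the 50 nearest tested genes, all within 1.16 Mb, 19 were lower and 0 higher, with a median log2 fold change of −0.21, and PLOD3 lay 0.16 below that median. ZNHIT1, which overlaps 429 exon bases of PLOD3 on the opposite strand, also fell (−0.23 ± 0.067, edgeR adjusted p = 0.0164). Of the 50 tested genes nearest to SMURF1, within 1.4 Mb, 18 were lower and 0 higher, with a median of −0.23. Beside both counts, 12.2% of all genes tested were lower and 10.3% higher. The windows around PLOD3 and SMURF1 overlap, so the counts can share genes. TRRAP, on the opposite strand, shares 735 exon bases with SMURF1, 11.7% of its exons, had 33462 counts against 8835, and fell (−0.24 ± 0.048, edgeR adjusted p = 0.00128). The part of these reads in the SMURF1 level was not tested. Whether the fall of PLOD3 belongs to the region or to the gene was not tested.

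PLOD1 (ENSG00000083444, chromosome 1, 11934205 to 11975538, plus strand), which hydroxylates lysines of the collagen triple helix, changed least of the 3. It read 254, 244, 242 and 239.6 CPM in shControl and 226, 228, 207 and 228 CPM in shSmurf1, without overlap. A log2 fold change of −0.14 ± 0.049 passed narrowly (edgeR adjusted p = 0.0410), and the change stayed negative under all 17 other settings (−0.23 to −0.11). It missed the threshold with the library total as the only scaling (adjusted p = 0.0819), with no filter on low counts (0.0742), with the replicate number as a block (0.0632) and without any 1 library other than shSmurf1 replicate 3 (0.05003 to 0.126), and passed in the other 7, down to 1.90e-05.

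TGM2 (ENSG00000198959, chromosome 20, 38127387 to 38166578, minus strand) had the largest rise among the well-counted genes of the 9. It read 214, 213, 217 and 213 CPM in shControl and 403, 402, 379 and 414 CPM in shSmurf1. Every shSmurf1 library lay above every control library, and the controls were close together (SD 1.64 CPM). The log2 fold change was 0.90 ± 0.046 (edgeR adjusted p = 4.19e-11), a 1.86-fold rise, with estimates from 0.85 to 0.92 under the 17 other settings. The 50 nearest tested genes had a median of 0.02, and RPRD1B, which shares 394 exon bases on the opposite strand, did not pass (−0.02 ± 0.062, edgeR adjusted p = 0.873).

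**Figure D2:**
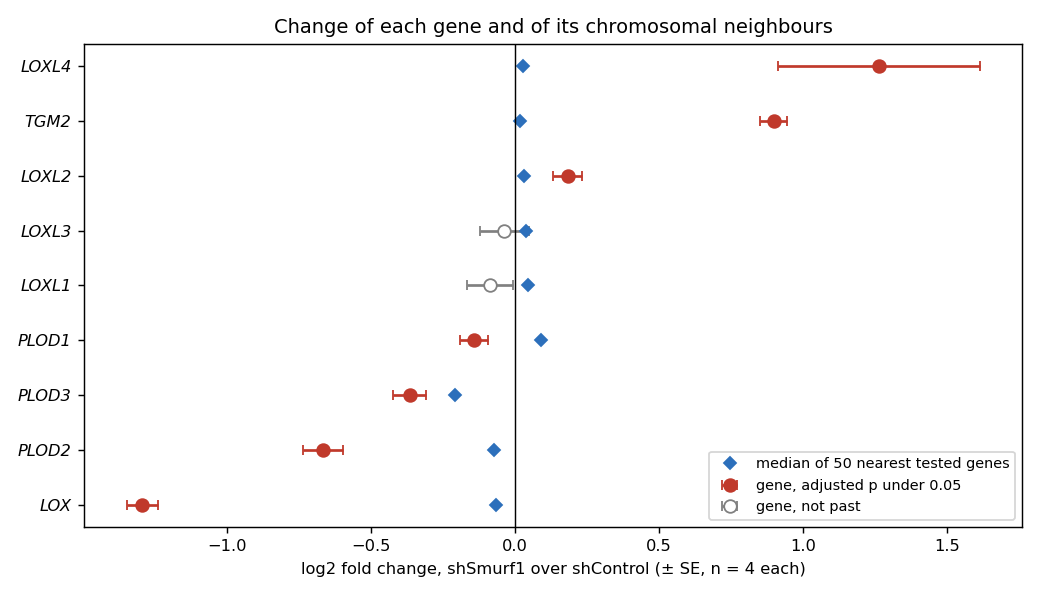
Log2 fold change (horizontal axis, shSmurf1 over shControl, ± SE, n = 4 each) of the 9 genes, filled where the adjusted p was under 0.05, with the median of the 50 nearest tested genes as a diamond. LOX at −1.29 and TGM2 at 0.90 lie far from their neighbours' medians of −0.07 and 0.02. PLOD3 at −0.37 lies below its neighbours' median of −0.21.

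Levels were compared between genes on a length-scaled scale, TPM, computed as counts over the union of annotated exons and scaled to the same total in every library. In shControl the order was LOXL2 (573 ± 13.7 TPM), LOX (223 ± 7.16), PLOD1 (178 ± 3.20), LOXL1 (144 ± 8.43), PLOD3 (106 ± 4.77), TGM2 (103 ± 2.51), PLOD2 (91.05 ± 2.45), LOXL3 (38.2 ± 2.70) and LOXL4 (1.12 ± 0.646). PLOD3 and TGM2 overlapped between libraries, and the other neighbours in this order did not. In shSmurf1, TGM2 stood second at 188 ± 10.5 TPM, behind LOXL2 at 635 ± 61.4, and LOX stood at 88.6 ± 5.39 TPM, below LOXL1 at 132 ± 22.0 and close to PLOD3 at 80.4 ± 8.11. PLOD2 fell to 55.9 ± 6.14 TPM. PLOD1, at 158 ± 10.8 TPM, overlapped with LOXL1 there. With the longest transcript as length, LOX ranked 3 and 7 of the 9 in shControl and shSmurf1, and TGM2 7 and 2.

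The makeup of the lysyl oxidase family shifted with LOX. LOX gave 22.8 ± 0.447% of the family's summed TPM in shControl and 9.98 ± 1.26% in shSmurf1. LOXL2 gave 58.5 ± 0.405% and 70.96 ± 0.112%, while LOXL1 averaged 14.7 ± 0.553% and 14.7 ± 1.26%. In shSmurf1 replicate 3 the LOXL1 share was 12.9%, against 15.0% to 15.6% in the other shSmurf1 libraries. The family's sum was 978 ± 28.4 TPM in shControl and 895 ± 87.5 TPM in shSmurf1, and those ranges overlapped. Among lysyl hydroxylases the sum went from 376 ± 7.31 to 294 ± 12.9 TPM without overlap, and the share of PLOD2 from 24.2 ± 0.323% to 19.1 ± 3.004%. In replicate 3 the PLOD2 share was 23.6%, against 17.2% to 18.0% in the other shSmurf1 libraries. The shares depend on the gene lengths: with the longest transcript in place of all exons, LOX gave 17.3% and 7.26% of its family, and LOXL2 65.8% and 76.3%.

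**Figure D3:**
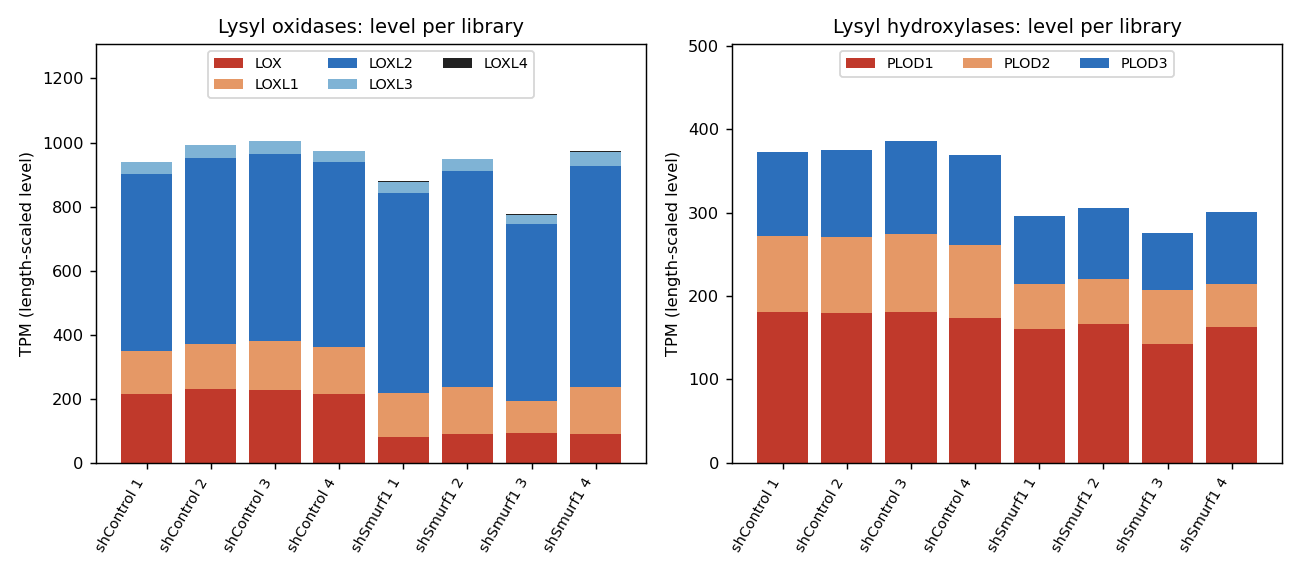
Stacked length-scaled levels (TPM, axis from 0) of the lysyl oxidases (left) and lysyl hydroxylases (right) in each of the 8 libraries. The LOX segment shrinks from 223 TPM on average in shControl to 88.6 TPM in shSmurf1 while LOXL2 stays the largest, and the hydroxylase bars are all lower in shSmurf1.

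Enzyme levels were also set against fibrillar collagen transcripts, whose sum overlapped between the groups. The summed TPM of 5 fibrillar collagen genes (COL1A1, COL1A2, COL3A1, COL5A1 and COL5A2) was 1571 ± 92.3 in shControl and 1669 ± 229 in shSmurf1. In shSmurf1 replicate 3 this sum was 1353 TPM, against 1655 to 1871 TPM in the other shSmurf1 libraries. Its genes did not move together: COL1A2, a chain of collagen I, fell from 244 ± 8.27 to 121 ± 4.86 CPM (−1.01 ± 0.050, edgeR adjusted p = 3.36e-11), COL3A1 rose 2.47-fold and COL5A2 1.43-fold. Per 100 of these transcripts, LOX stood at 14.2 ± 0.480 in shControl and 5.40 ± 0.956 in shSmurf1. The same ratio for PLOD2 was 5.81 ± 0.284 and 3.44 ± 0.922, for TGM2 6.59 ± 0.241 and 11.4 ± 1.03, and for LOXL2 36.5 ± 1.40 and 38.3 ± 2.00. Those of LOX, PLOD2 and TGM2 did not overlap between the groups, and that of LOXL2 did. The ratio of TGM2 to LOX went from 0.464 ± 0.010 to 2.13 ± 0.197. These ratios are of RNA and were chosen after the levels were seen.

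The deviation of shSmurf1 replicate 3 from the other 3 shSmurf1 libraries differed with GC content across the 9 genes. On the log2 scale it was −0.45 for LOXL1 (67.6% GC), −0.24 for PLOD3 (61.7%), −0.14 for PLOD1 (58.6%) and −0.098 for TGM2 (55.1%), with LOXL2 (58.2%) at −0.20 and LOXL3 (56.4%) at −0.32. It was 0.14 for LOX (39.6%) and 0.36 for PLOD2 (34.4%). LOXL4, with the fewest counts, lay at 0.50 at 57.7% GC. The falls of LOX and PLOD2 were somewhat larger without that library, and both remained past the threshold with the GC trends removed (−1.22 ± 0.042 and −0.58 ± 0.041). TGM2 lay at 0.85 ± 0.034 in that fit.

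**Figure D4:**
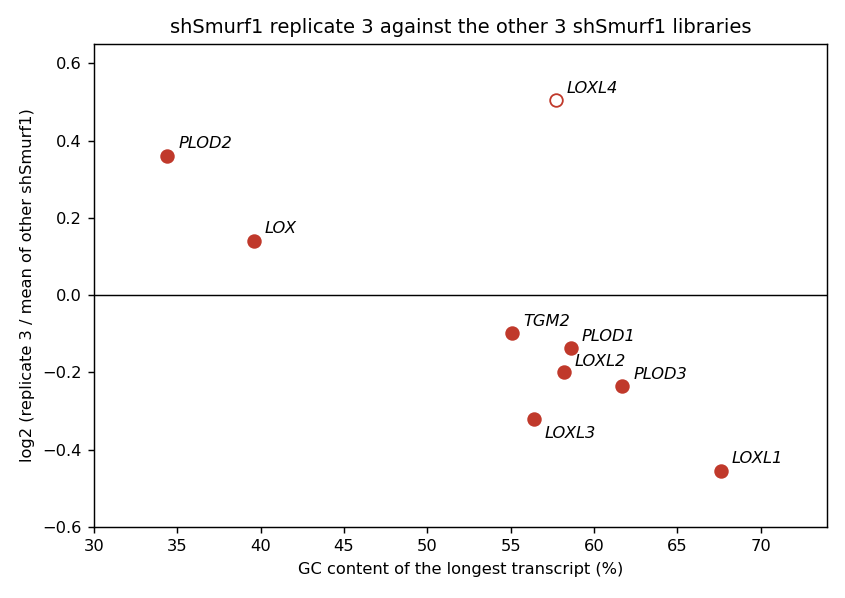
Log2 ratio of shSmurf1 replicate 3 to the mean of the other 3 shSmurf1 libraries (vertical axis) against the GC content of each gene's longest transcript in percent (horizontal axis); the open point is LOXL4, with the fewest counts. PLOD2 and LOX, the most AT-rich, lie above 0, and LOXL1, the most GC-rich, lies lowest at −0.45.

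Genes that prepare collagen beside the lysyl hydroxylases in the endoplasmic reticulum moved in both directions. Of 18 listed and tested, 3 rose and 5 fell, against 10.3% and 12.2% of all genes, with a list median of 0.04 on the log2 scale against 0.01. FKBP10, the peptidyl-prolyl isomerase that serves PLOD2 in telopeptide hydroxylation, fell from 105 ± 4.47 to 76.5 ± 7.24 CPM (log2 fold change −0.45 ± 0.065, edgeR adjusted p = 3.63e-05). P4HA1, a catalytic subunit of prolyl 4-hydroxylase, was lower (−0.26 ± 0.067), with groups that overlapped. MIA3, which loads procollagen for export, was higher (0.26 ± 0.061). SERPINH1, the collagen chaperone, at −0.02 ± 0.049, and COLGALT1, the galactosyltransferase that acts on hydroxylysine, at 0.09 ± 0.046, did not pass, although COLGALT1 did without shSmurf1 replicate 3 (edgeR adjusted p = 0.0208, n = 4 and 3). Without that replicate 7 of the list were higher and 5 lower, and without any other 1 library 2 were higher and 4 or 5 lower. COLGALT2, chosen after its values were seen, had the largest change of the list by size but was low (2.53 ± 0.509 to 1.42 ± 0.292 CPM, log2 fold change −0.82 ± 0.25).

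The proteases that free LOX and fibrillar collagens from their propeptides were listed with the enhancers PCOLCE and PCOLCE2. Of the 8 tested genes of this list, 3 rose and 0 fell, where 10.3% and 12.2% of all genes did, with a median of 0.15. At an unadjusted p under 0.05, 1 of them was lower, PCOLCE, named after its value was seen, and DESeq2 and limma-voom called 0 lower. BMP1, the procollagen C-proteinase that also activates pro-LOX, rose from 66.3 ± 2.83 to 84.5 ± 7.82 CPM (0.35 ± 0.066, edgeR adjusted p = 0.000622). ADAMTS2, an N-proteinase, rose by 0.42 ± 0.055, and ADAMTS14, its relative and chosen after its values were seen, by 1.61 ± 0.24 from 1.11 CPM. TLL1, a relative of BMP1 (0.18 ± 0.076), and FURIN, a proprotein convertase (0.0042 ± 0.065), did not pass, although TLL1 passed as higher without shSmurf1 replicate 1 and with the GC trends removed (edgeR adjusted p = 0.0461 and 0.0105). Without shControl replicate 1, 3 were higher and 1 lower, and with the GC trends removed 4 were higher and 1 lower.

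Substrates and assembly partners of the lysyl oxidases divided. Of 20 listed, 15 were tested, 6 rose and 5 fell, against 10.3% and 12.2% of all genes, with a median of 0.07. COL3A1 (1.302 ± 0.077) and POSTN, periostin, which helps BMP1 act on LOX (1.29 ± 0.093), rose, and COL11A1, a minor fibrillar collagen, fell (−2.04 ± 0.12). COL1A1, at 2001 ± 96.2 CPM in shControl and 1884 ± 303 CPM in shSmurf1, did not pass, but did as lower with the GC trends removed (−0.19 ± 0.047, edgeR adjusted p = 0.00334). LTBP4, which guides elastic fibre assembly, did not pass (0.07 ± 0.074). Without shSmurf1 replicate 3, LTBP4 passed as higher (0.16 ± 0.038, edgeR adjusted p = 0.00128), and with the GC trends removed it lay at −0.07 ± 0.035 and did not pass. COL1A1 lay at 0.02 ± 0.040 without that replicate. Without shControl replicate 2, 3 of the list were lower. ELN, elastin, named after its values were seen, lay at 0.0821 CPM in shControl and was not tested.

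**Figure D5:**
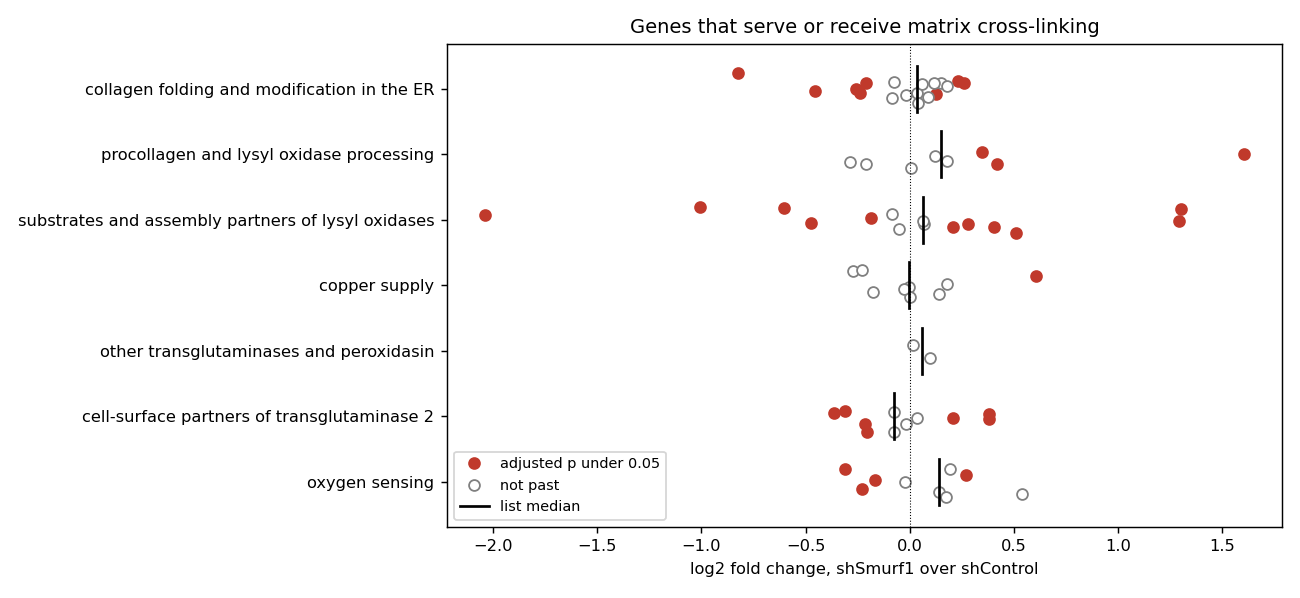
Log2 fold change (horizontal axis, shSmurf1 over shControl) of each tested gene in 7 lists of genes that serve, receive or regulate matrix cross-linking; filled points had an adjusted p under 0.05 and bars are list medians. The list medians lie between −0.07 and 0.15, and the substrate list spreads from −2.04 to 1.302.

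Lysyl oxidases need copper, which is loaded in the secretory pathway. Of 9 copper genes tested, ATP7B, a copper-transporting ATPase, rose (12.2 ± 2.01 to 18.6 ± 2.20 CPM, 0.61 ± 0.12, edgeR adjusted p = 0.000797) and 0 fell, beside 10.3% and 12.2% of all genes. At an unadjusted p under 0.05 1 was lower, COMMD1, named after its value was seen, and DESeq2 and limma-voom called 0 lower. The uptake channel SLC31A1 (−0.0041 ± 0.053) and ATP7A, the ATPase that supplies lysyl oxidases (0.18 ± 0.077), did not pass, although ATP7A passed as higher with the GC trends removed (edgeR adjusted p = 0.00309). Copper genes then numbered 2 higher and 1 lower.

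TGM2 was the one transglutaminase at a high level. Of the other 8 transglutaminase genes listed, TGM1 alone was tested, at 1.78 ± 0.377 CPM in shControl and 1.91 ± 0.497 CPM in shSmurf1, and did not pass. At an unadjusted p under 0.05 edgeR called 0 of this list, as did DESeq2 and limma-voom after adjustment. PXDN, the peroxidase that cross-links collagen IV, was abundant and did not pass either (368 ± 15.8 against 372 ± 25.5 CPM, 0.02 ± 0.053). Among 11 cell-surface partners and receptors of transglutaminase 2, 3 rose and 4 fell, against 10.3% and 12.2% of all genes, with a median of −0.07. ADGRG1, an adhesion receptor that binds it (0.38 ± 0.062), and PDGFRB, a growth factor receptor (0.38 ± 0.059) rose, and SDC4, a heparan sulphate co-receptor, fell (−0.36 ± 0.060). LRP1, its endocytic receptor (−0.07 ± 0.072), and ITGA5, a fibronectin receptor chain (0.04 ± 0.052), did not pass, although LRP1 passed as lower with the GC trends removed (edgeR adjusted p = 0.00954).

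The oxygen-sensing machinery regulates LOX and PLOD2 through hypoxia-inducible factors. Of 9 tested genes, 1 rose and 3 fell, against 10.3% and 12.2% of all genes, with a median of 0.14. HIF1A, the HIF-1α gene and the most abundant of the list, was named after its values were seen. It fell from 685 ± 17.2 to 611 ± 61.1 CPM, with overlap (−0.16 ± 0.057, edgeR adjusted p = 0.0444). EGLN3, a prolyl hydroxylase named in the same way, had the largest estimate of the list and did not pass (2.94 ± 0.611 and 4.28 ± 0.776 CPM, 0.54 ± 0.20, edgeR adjusted p = 0.0643). EGLN1, the main oxygen-sensing prolyl hydroxylase, fell (89.1 ± 5.70 to 71.8 ± 3.84 CPM, −0.31 ± 0.061, edgeR adjusted p = 0.000896), as did ARNT, the shared partner subunit (−0.23 ± 0.068), although ARNT did not pass without shControl replicate 4 (edgeR adjusted p = 0.0744). EPAS1, the HIF-2α gene, rose (0.27 ± 0.046). HIF1AN, an asparagine hydroxylase (0.14 ± 0.064), and VHL, a ubiquitin ligase subunit (0.17 ± 0.064), did not pass. Both passed as higher with the GC trends removed, when 4 of the list were higher and 2 lower. HIF1AN also passed without shSmurf1 replicate 3, and VHL with the library total as the only scaling. Genes of the list called lower numbered 1 or 2 without any 1 library other than shSmurf1 replicate 3, and those called higher numbered 3 without shSmurf1 replicate 3 and 2 without shSmurf1 replicate 1.

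Among the protein-coding genes whose log2 CPM followed LOX most closely over the 8 libraries, of 8696 compared, were ARID5B, a DNA-binding protein (Pearson r = 0.998), and MET, the hepatocyte growth factor receptor (0.998). MET stood at 391 ± 10.3 CPM in shControl and 202 ± 12.4 CPM in shSmurf1. The closest to PLOD2 were NUMB (0.997), FEZ2 (0.995) and CEP55 (0.994). The closest to TGM2 were SPARC, a collagen-binding matrix protein (0.997), LAMA4, a laminin chain (0.997), and KCTD2 (0.997). SPARC stood at 836 ± 6.38 CPM in shControl and 1083 ± 23.2 CPM in shSmurf1. These values describe 8 libraries in 2 groups, so any gene that separates the groups scores highly, and the libraries share depth and GC trends.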

How the data were processed

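Poly(A)-selected RNA was reverse transcribed with random hexamers, and the labels' protocols describe no strand-marking step. The authors deposited raw read counts per gene. The tools named are featureCounts (1.5.0-p3), HISAT2 (2.0.5), fastp and CASAVA, per the submitters' processing notes. The authors' genome build is not given in the sources used here, nor is their annotation. All 58735 identifiers were found in GENCODE release 29 (GRCh38), which gave symbols, positions, exon lengths and GC content. Without strand, reads over exon bases that overlapping genes share cannot be told apart. Whether such reads were counted for either gene was not tested.

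Genes were kept by edgeR's filterByExpr (minimum count 10), scaled by TMM and tested two-sided with edgeR's quasi-likelihood F test (edgeR 4.0.16, R 4.3.3), shSmurf1 against shControl, with Benjamini-Hochberg adjustment over all 15647 genes and a threshold of 0.05. SEs are the log2 fold change over the root of F. CPM are counts over TMM-scaled library sizes. A p-value therefore reflects only how these libraries vary, which may be technical. Counts were also simulated with the shControl means and the library sizes of this comparison, over 15312 genes. Filter and test together recovered 44% of 50 genes planted with a fold of 1.25, 68% of 50 with 1.5, 82% of 50 with 2 and 94% of 50 with 4, and called 10 others. Of each 50, 48, 50, 49 and 47 had enough counts to test, and any others counted as missed. No simulated library was given a GC trend such as that of shSmurf1 replicate 3.

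The 9 genes, the 7 context lists, the markers and the settings were chosen with earlier results of these data known. Besides the 9 genes, the text names up to 3 changed genes per list (average log2 CPM at least 2, largest change), the 2 most abundant not past the threshold, and the 3 genes most like LOX, PLOD2 and TGM2 (average log2 CPM at least 4), of which 1 is not reported here. Other settings were DESeq2 (version 1.42.0) and its size factors, the library total, limma-voom (limma 3.58.1), no filter, a CPM of 1 in 4 libraries, the replicate block, removal of each library's GC trend (lowess) and leaving out each library. GC trends were fitted to deviations from each gene's mean over all libraries, which also takes out GC-linked differences between the groups. The GC trend removed together with shSmurf1 replicate 3 was added after seeing the data.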

Additional observations from a re-analysis of the deposited data

Results flagged for a closer look

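The value of 1 library lay far from the other 3 of its group in 2 of the 20 sets of 4 libraries examined (the 9 genes and SMURF1 in each group), by Dixon's test at the 95% level, which chance passes in about 1 set in 20. Both were in shSmurf1 replicate 3. PLOD1 was lowest there, at 207 CPM, with a gap of 0.895 of the range, and PLOD2 was highest, at 136 CPM, with a gap of 0.899. The PLOD1 and PLOD2 transcripts hold 58.6% and 34.4% GC, and that library's log2 CPM fell with GC content; the part of this trend in both values was not tested.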

How the results depend on the processing

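LOX, PLOD2, PLOD3, TGM2, LOXL4 and SMURF1 kept their direction and stayed past the threshold under all 17 other settings. LOXL1 was −0.23 with the GC trends removed and −0.22 with shSmurf1 replicate 3 left out as well, and passed in both. LOXL2 was 0.12 in both and passed. Leaving out 1 library, LOXL1 ranged from −0.13 to 0.02, LOXL3 from −0.13 to 0.04, LOXL2 from 0.14 to 0.23 and PLOD1 from −0.16 to −0.11. LOXL1 and LOXL3 turned positive without shSmurf1 replicate 3, at 0.018 and 0.039. PLOD1 was −0.12 with the library total only, −0.14 with no filter and −0.14 with the replicate block, and passed in none of these. The cause was not tested. Counts over all genes called higher ranged from 1216 to 2601 over the fits that left out 1 library, against 1611, the highest without shSmurf1 replicate 3. With the longest transcript as gene length, LOX gave 17.3% and 7.26% of the lysyl oxidases in shControl and shSmurf1, LOXL2 65.8% and 76.3%, and PLOD2 25.6% of the hydroxylases in shControl. Whether replicate numbers pair the libraries is not stated in the labels. Same-numbered libraries' deviations from their group means correlated at 0.032, −0.012, −0.067 and 0.029. These values cannot decide it, because the deviations also hold each library's GC trend. With the replicate block 1418 genes were higher and 1774 lower, against 1611 and 1916. Reads limit LOXL4, with 6 to 51 counts per library.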
